A study of Mus musculus with 6 samples.

Results

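Matricellular and elastic fiber genes were examined in corneal keratocytes, the mesenchymal cells of the transparent corneal stroma. The set held 44 genes, all found among the 17606 genes of the expression table, and 42 of them were among the 13888 genes that passed the filter on low counts and were tested. They were chosen by name, as families of secreted matrix proteins, by a rule that uses no measured value but was set with earlier results of these data known. The set comprised tenascins, thrombospondins with Comp, the SPARC family, the CCN family, periostin, osteopontin and fibronectin, fibulins, elastin with its microfibrils, and a group of other matrix glycoproteins. Bulk RNA-seq compared keratocytes sorted from Prrx1-CreERT;Ptch1 f/f mice, whose floxed alleles the labels leave out, with those of control (ctrl) mice, with 3 libraries in each group, which the study's methods call biological replicates. In the former, tamoxifen switches on a Cre recombinase expressed from Prrx1, which deletes the Hedgehog receptor gene Ptch1, and this group is called ablated below. Per the labels all mice were 10 weeks old and received 3 doses of tamoxifen, with a treatment time of 1 month. The sources used here do not settle whether this age is that at tamoxifen or at collection. The floxed line had been backcrossed to C57BL/6. The labels call the controls ctrl or WT and do not say whether they carry Prrx1-CreERT or floxed alleles. Per the study Prrx1-CreERT also recombines in corneal endothelium and in other mesenchymal lineages of the eye, so the driver is not restricted to keratocytes.

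Matricellular proteins are secreted into the matrix but act mainly on cells: tenascins, thrombospondins, SPARC and CCN proteins bind integrins, growth factors and collagen, and many are known for high expression in development and wound repair. Elastic fibers are built on microfibrils of fibrillin, onto which elastin is deposited with the help of fibulins, emilins and microfibril-associated proteins. The adult corneal stroma holds fibrillin microfibrils with little elastin, and its transparency depends on regularly spaced collagen fibrils rather than on elastic fibers.

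Library totals lay between 20258414 and 24788039 counts. The libraries labelled ablated had 4348, 5194 and 6230 counts of Ptch1 against 172, 104 and 369 in controls, and a count over the whole gene cannot show whether exons were deleted. The pathway target Gli1 had 3022, 3042 and 3098 against 1, 20 and 36 counts. Prrx1, the gene of the driver, had 3750, 4636 and 4594 counts in ablated libraries against 6113, 5700 and 6994 in controls. Its log2 fold change was -0.71 ± 0.14 (SE) at an edgeR adjusted p of 0.00610. The study's methods call the driver line a knock-in, and the part of that allele in this difference was not tested. Counts are given below in the order of replicates 1 to 3. The second principal component, with 22.2% of the variance, set control replicate 1 and ablated replicate 2 apart. The 8 keratocyte markers summed to 102928 to 118712 TPM in control and 79924 to 95958 TPM in ablated libraries, 5 of the 7 tested fell, and Ptgds was nearly absent in both groups. Markers of other cells moved between the groups as well. Markers of corneal epithelium summed to 50.8 to 89.5 TPM in control and 3.71 to 8.77 TPM in ablated libraries (of 6 tested 3 fell and Krt12, at 0 in every control, rose), and those of mural cells, which surround vessels, to 367 to 446 TPM in control and 609 to 710.4 TPM in ablated libraries (2 of 6 rose). Markers of vascular endothelium summed to 269 to 383 TPM in control and 383 to 452 TPM in ablated libraries (2 of 5 rose). Those of Schwann cells summed to 124 to 141 TPM in control and 184 to 200.03 TPM in ablated libraries (1 of 5 rose). Those of leukocytes summed to 4499.9 to 4799.9 TPM in control and 6451 to 7145 TPM in ablated libraries (1 of 6 rose). The leukocyte marker that rose, Cd74, lay at 3079 ± 161 TPM in control and 5201 ± 508 TPM in ablated libraries (SD, n = 3 each). Of the 6 leukocyte markers 3 had higher and 3 lower estimates, with a median log2 fold change of 0.031. Of the tested markers of corneal endothelium, melanocytes and tendon or scleral fibroblasts, 0 of 9 passed in either direction, with sums of 318 to 374 TPM in control and 236 to 418 TPM in ablated libraries (Car12 at 0 in every control), 1.28 to 5.59 TPM in control and 2.31 to 4.51 TPM in ablated libraries (Dct at 0 in every ablated library) and 176 to 211 TPM in control and 155 to 196 TPM in ablated libraries, respectively. Among these, Slc4a11 of corneal endothelium had 20, 174 and 100 counts across control libraries against 511, 346 and 650 across ablated ones. Its log2 fold change was 2.12 ± 0.61 (SE) at an edgeR adjusted p of 0.0541, with every ablated library above every control. The 2 tested endothelial markers with lower estimates were Col8a2 and Atp1b1. The part of all these other cell types in the results below was not tested. In bulk libraries a change in the number of cells of a type and a change in RNA per cell cannot be told apart.

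Of the 42 tested members, 12 rose and 12 fell in ablated keratocytes at an adjusted p of at most 0.05 in edgeR's quasi-likelihood test, which compares counts between groups and adjusts over all genes. Among all tested genes 4.68% rose and 3.80% fell by this rule, 8.48% in all. These shares were larger among abundant genes. Of the 1508 tested genes at a control mean TPM of at least 100, 6.03% rose and 16.8% fell, and of the 18 members at that level 2 rose and 10 fell. Of the 102 at 1000 TPM or more, 11.8% rose and 45.1% fell, and of the 7 members there 2 rose and 4 fell. With a fold change of at least 2 as well, the threshold of the study's methods, 10 members were higher and 8 lower, where 3.36% of all tested genes were higher and 2.13% lower, 5.49% in all. The study's results name the same fold with p rather than an adjusted p, so these calls need not match its gene list. The median log2 fold change, given as ablated over control throughout, was 0.42 over the tested members and 0.0046 over all tested genes. Groups did not overlap in CPM for 33 members (78.6%), as for 27.4% of all tested genes, and overlap is given in CPM below unless TPM is named. In 5 of the 8 families some members rose and others fell, as the plot of fold changes by family shows. On TPM, a level per transcript length, the split at 2-fold was 14 higher to 4 lower in limma on log2(TPM + 1) and 14 to 5 on log2(TPM + 0.1), fits in which the median of all genes lay at 0.19 and 0.22. With library totals as the only scaling, chosen after the data were seen, the split was 10 to 6.

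**Figure D1:**
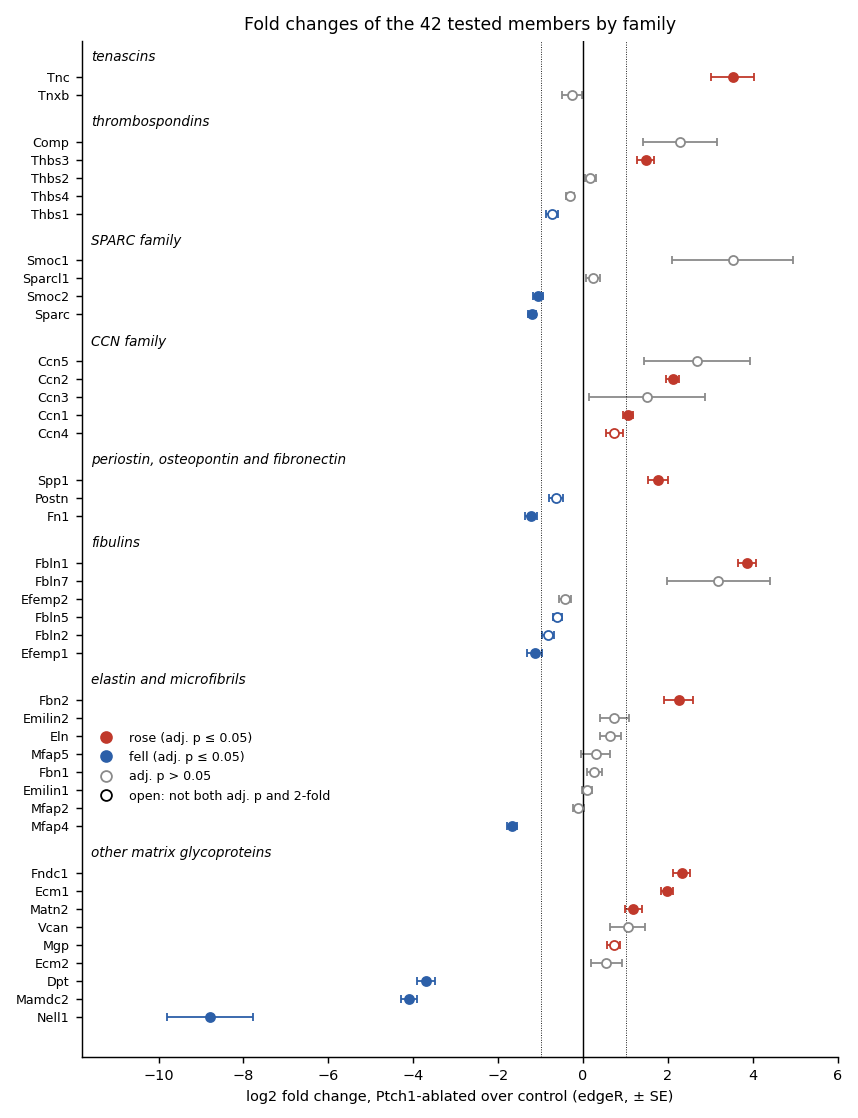
Log2 fold change of each tested member (x axis, Ptch1-ablated over control, bars are the SE of the edgeR fit), grouped by family on the y axis. Red points rose and blue points fell at an adjusted p of at most 0.05, grey points did not pass, and filled points also changed by at least 2-fold, so that 10 filled red and 8 filled blue points stand outside the dotted lines. The fitted value of Nell1 depends on the prior count, since its ablated libraries hold almost no counts.

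Levels per length can be compared between genes, so the members were first ranked by TPM. In controls Sparc was the most abundant member at 6426 ± 113 TPM (SD, n = 3) and ranked 14 among all genes in the table. Mfap4 and Thbs4 followed at 2467 ± 21.7 and 2305 ± 192 TPM without overlap, and then Smoc2 at 1725 ± 217 and Fbln5 at 1688 ± 32.5 TPM, whose ranges overlapped. Mgp (1344 ± 179 TPM) and Ccn1 (1338 ± 175 TPM) overlapped as well. In ablated keratocytes the order was led by Ccn1 at 3230.4 ± 118 and Sparc at 3228 ± 89.2 TPM, which overlapped, then Mgp at 2562 ± 364 and Thbs4 at 2145 ± 129.7 TPM, which also overlapped. Among the members Mfap4 went from rank 2 to rank 7, Dpt from 8 to 20 and Mamdc2 from 11 to 27, while Fbln1 went from rank 29 to rank 15. The summed TPM of all 44 members was 22539 ± 959.7 in control and 19467 ± 340.5 in ablated libraries (SD, n = 3 each), or 2.25% and 1.95% of all TPM. The 2 groups did not overlap in this sum, for which no test was made.

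**Figure D2:**
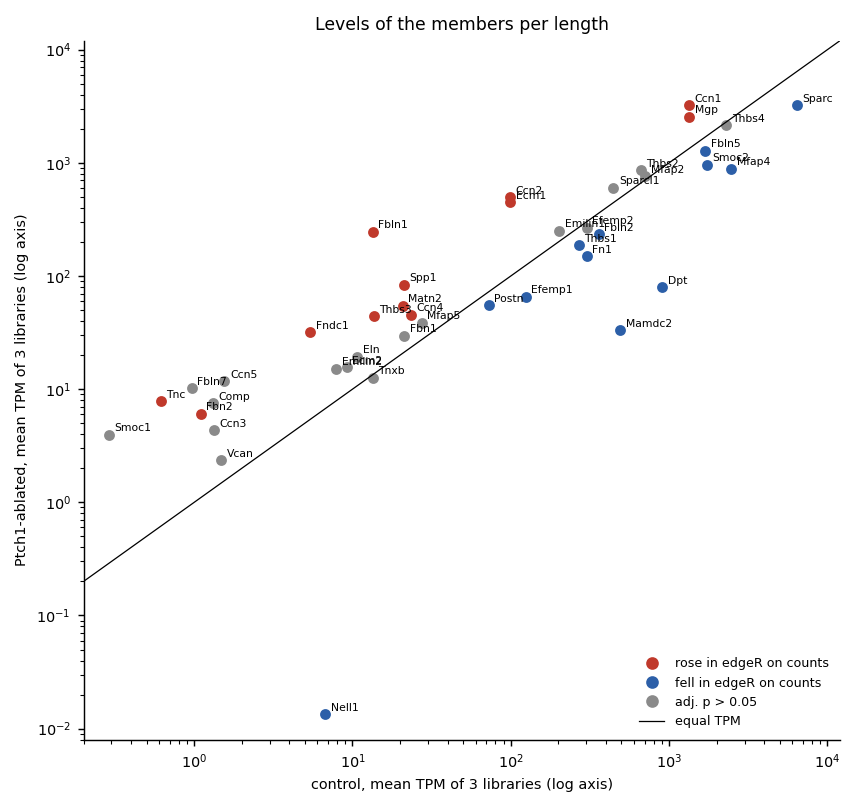
Mean TPM of each member in control (x axis) and Ptch1-ablated keratocytes (y axis), both on log axes, each point the mean of 3 libraries, with the line of equal TPM. Abundant members such as Sparc, Mfap4, Dpt and Mamdc2 lie below the line and Ccn1, Mgp, Fbln1 and Ecm1 above it. Tnn and Nell2, at 0 in every control, are not drawn.

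In the CCN family 3 of 5 members rose and none fell. CCN proteins are small modular signaling proteins that bind integrins, and Ccn1 and Ccn2 (CYR61 and CTGF) are classical targets of YAP and TEAD and rapidly inducible genes. Ccn1 had 23572, 22485 and 30651 counts across control libraries against 62131, 55357 and 63033 across ablated ones, and each ablated library lay above every control. It rose 2.09-fold, from 1202 ± 131 to 2513 ± 150.0 CPM (SD, n = 3), where CPM is counts per 1000000 of the scaled library total, with a log2 fold change of 1.06 ± 0.11 (SE) at an edgeR adjusted p of 7.86e-05. Ccn2 had 1998, 2003 and 2887 counts across control libraries against 10623, 10534 and 12481 across ablated ones, again without overlap. It rose 4.34-fold, from 108 ± 17.5 to 468 ± 30.3 CPM (SD, n = 3), a log2 fold change of 2.12 ± 0.15 (SE) at an edgeR adjusted p of 4.21e-06. Ccn4 (WISP1) had 1365, 1137 and 1100 counts across control libraries against 2806, 1987 and 1976 across ablated ones, and it rose by 0.73 ± 0.20 (SE) on the log2 scale, close to the threshold (adjusted p = 0.0450 by edgeR). The call of Ccn4 was lost when any of the 6 libraries was left out, with log2 fold changes of 0.53 without ablated replicate 1 to 0.84 without ablated replicate 3 and an adjusted p of 0.00624 to 0.193 over all alternatives. Immediate early genes, which respond within minutes to handling and signals, were also higher: 6 of 8 rose, with summed levels of 7836 to 9155 TPM in control and 14296 to 16324 TPM in ablated libraries. Their part in the rise of Ccn1 and Ccn2 was not tested.

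The remaining CCN genes were sparse. Ccn3 (NOV) had 0, 67 and 19 counts across control libraries against 196, 8 and 90 across ablated ones, and its groups overlapped. Ccn5 (WISP2), a CCN protein without the C-terminal module, had 0, 3 and 76 counts across control libraries against 120, 337 and 84 across ablated ones, the highest of them in ablated replicate 2. Their log2 fold changes were 1.5 ± 1.36 (SE) at an edgeR adjusted p of 0.607 and 2.69 ± 1.25 (SE) at an edgeR adjusted p of 0.249, respectively. Control replicate 3 held nearly all control counts of Ccn5, and without it the value was 6.55 (edgeR adjusted p = 0.00961, 0.00961 to 0.628 over all alternatives), a fitted value that depends on the prior count at so few control counts. Without control replicate 2 the value of Ccn3 was 3.28, and without ablated replicate 1 it was 0.46. The summed TPM of the family was 1463 ± 193 in control and 3789 ± 111 in ablated libraries (SD, n = 3 each), most of it from Ccn1.

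Promoter sequence is shown for 5 members that passed the test, so that the letters searched can be read beside the values. Ccn1 and Ecm1, which rose, and Efemp1, which fell, hold a match to a motif searched, and Fbln1, which rose, and Dpt, which fell, hold none. Each line is the 250 bases before the RefSeq start on GRCm38.p6, 5′ to 3′ on the gene's own strand, with motif matches in capitals. The GEO processing notes name mm9, so these positions belong to the sequence table and not to the alignment. Ccn1 lies at chr3:145649986-145650235, minus strand, Ecm1 at chr3:95739570-95739819, minus strand, Efemp1 at chr11:28852955-28853204, plus strand, Dpt at chr1:164796413-164796662, plus strand and Fbln1, for the first of its 2 starts, at chr15:85205699-85205948, plus strand.
Ccn1: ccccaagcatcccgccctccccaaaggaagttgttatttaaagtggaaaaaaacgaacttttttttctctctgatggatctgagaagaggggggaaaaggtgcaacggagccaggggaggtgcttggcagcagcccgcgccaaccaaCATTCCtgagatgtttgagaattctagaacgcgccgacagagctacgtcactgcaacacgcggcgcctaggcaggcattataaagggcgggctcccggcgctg
Ecm1: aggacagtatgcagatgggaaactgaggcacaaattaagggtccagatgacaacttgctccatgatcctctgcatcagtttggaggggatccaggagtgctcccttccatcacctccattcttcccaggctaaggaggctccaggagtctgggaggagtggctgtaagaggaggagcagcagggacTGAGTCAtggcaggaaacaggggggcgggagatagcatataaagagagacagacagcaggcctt
Efemp1: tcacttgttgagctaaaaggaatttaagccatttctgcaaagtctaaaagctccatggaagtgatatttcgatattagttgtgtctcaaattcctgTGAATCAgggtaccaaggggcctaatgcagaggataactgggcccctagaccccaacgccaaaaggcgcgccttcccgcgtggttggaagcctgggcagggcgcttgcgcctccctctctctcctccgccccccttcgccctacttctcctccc
Dpt: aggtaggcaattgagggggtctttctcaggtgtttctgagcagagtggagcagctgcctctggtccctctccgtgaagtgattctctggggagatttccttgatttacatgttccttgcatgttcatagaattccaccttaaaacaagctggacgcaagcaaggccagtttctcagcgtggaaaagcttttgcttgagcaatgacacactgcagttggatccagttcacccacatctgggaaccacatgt
Fbln1: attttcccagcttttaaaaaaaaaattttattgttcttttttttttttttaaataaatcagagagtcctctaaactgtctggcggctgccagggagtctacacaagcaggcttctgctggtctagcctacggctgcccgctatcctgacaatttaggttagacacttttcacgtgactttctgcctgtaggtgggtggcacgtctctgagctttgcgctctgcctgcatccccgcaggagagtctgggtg
The letters searched, on both strands, were GGAATG for TEAD, TGANTCA for AP-1 and GACCACCCA for GLI factors, and the matches shown did not overlap each other. Promoter sequence was matched by Entrez ID for 26 of the 44 members. Ccn2 was not among them, so its promoter was not searched. The TEAD letters were found in 6 of these 26 genes (Ccn1, Emilin2, Fbln7, Mfap2, Thbs4 and Tnn) and in 14.4% of all 27025 genes with a promoter. In Ccn1 they stand on the opposite strand as CATTCC, starting at position -103 from the start. The AP-1 letters were found in Ecm1, Efemp1 and Tnxb, 3 of 26, and in 7.82% of all genes. They read TGAGTCA in Ecm1, which rose, and TGAATCA in Efemp1, which fell. The GLI letters were in none of the 26 member promoters and in 0.255% of all genes. Dpt and Fbln1 held none of the 3 motifs in this window. A match is a run of letters only and was not tested as a binding site.

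Thrombospondins are multimeric glycoproteins that bind integrins, and Thbs1 also binds CD36 and CD47 and activates latent TGF-beta. Their summed TPM was 3249 ± 355 in control and 3240.1 ± 124 in ablated libraries (SD, n = 3 each). Most of this sum came from Thbs4 and Thbs2, neither of which passed. Thbs4 lay at 2305 ± 192 TPM in control and 2145 ± 129.7 TPM in ablated libraries, and Thbs2 at 661 ± 131 and 857 ± 17.3 TPM. Of the less abundant genes Thbs3 rose and Thbs1 fell. Thbs3 had 485, 400 and 400 counts across control libraries against 1253, 1338 and 1451 across ablated ones, with every ablated library above every control. It rose 2.77-fold, from 20.3 ± 2.46 to 56.2 ± 2.56 CPM (SD, n = 3), a log2 fold change of 1.47 ± 0.21 (SE) at an edgeR adjusted p of 0.000672. Thbs1 had 13333, 15672 and 18882 counts across control libraries against 11027, 9700 and 12067 across ablated ones and fell by less than 2-fold, with a log2 fold change of -0.73 ± 0.14 (SE) at an edgeR adjusted p of 0.00744. The call of Thbs1 was lost without control replicate 2 (-0.66, edgeR adjusted p = 0.0516) and in both limma fits on TPM (adjusted p over all alternatives 2.16e-05 to 0.0604). Thbs4, the third most abundant member in controls and the fourth in ablated libraries by TPM, a gene of tendon and muscle matrix, had 68592, 68689 and 80692 counts across control libraries against 65682, 65063 and 67070 across ablated ones. Its groups did not overlap in CPM but did in TPM, and its log2 fold change of -0.32 ± 0.10 (SE) at an edgeR adjusted p of 0.0662 did not pass. Thbs2, an inhibitor of angiogenesis, had 33952, 35340 and 50800 counts across control libraries against 51245, 46288 and 54335 across ablated ones, and its groups overlapped in CPM but not in TPM (log2 fold change 0.17 ± 0.13, adjusted p = 0.534 by edgeR). Comp, the cartilage thrombospondin, had 76, 11 and 6 counts across control libraries against 243, 134 and 131 across ablated ones, and control replicate 1 held most of the control counts. Its log2 fold change was 2.29 ± 0.87 (SE) at an edgeR adjusted p of 0.150, and without control replicate 1 it was 4.07 (edgeR adjusted p = 0.00591, range 0.00591 to 0.411 over the alternatives). Within each library Thbs3 stood at 6.90, 4.84 and 4.02% in the control libraries and 21.5, 26.2 and 22.8% in the ablated ones of the TPM of Thbs1, a pair chosen after their values were seen.

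Tenascins are large matrix glycoproteins that can weaken cell adhesion. Tnc (tenascin-C), known from embryonic and healing tissue, had 13, 44 and 49 counts across control libraries against 367, 553 and 473 across ablated ones. It rose 11.5-fold, from 1.69 ± 0.947 to 19.4 ± 3.94 CPM (SD, n = 3), a log2 fold change of 3.52 ± 0.50 (SE) at an edgeR adjusted p of 0.000766, which was 2.45 in limma on log2(TPM + 1). Even so, Tnc stayed a low gene, at 7.80 ± 1.90 TPM in ablated libraries, below Tnxb at 12.5 ± 4.10 TPM. Tnxb, whose loss causes a form of Ehlers-Danlos syndrome, had 1429, 1539 and 1971 counts across control libraries against 1696, 1858 and 1084 across ablated ones. Its groups overlapped, with ablated replicate 3 the lowest of all, and the log2 fold change was -0.26 ± 0.23 (SE) at an edgeR adjusted p of 0.601. Tnn (tenascin-W) was too low to be tested, with 0 counts in every control and 1, 37 and 0 in the ablated libraries. A count of 0 allows up to 3 counts, or 0.131 to 0.158 CPM in a control library, a limit that covers counting error only. The counts of Tnn came almost wholly from ablated replicate 2.

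In the SPARC family the most abundant members, Sparc and Smoc2, fell. SPARC (osteonectin) binds collagen and regulates fibril assembly. Sparc had 168005, 150910 and 174335 counts across control libraries against 77521, 76553 and 87984 across ablated ones, and no ablated library reached any control. It fell 2.31-fold, from 7759.6 ± 159 to 3366 ± 154 CPM (SD, n = 3), a log2 fold change of -1.20 ± 0.09 (SE) at an edgeR adjusted p of 4.21e-06. Smoc2, a calcium-binding modular protein, had 44381, 41848 and 57030 counts across control libraries against 25398, 24513 and 27423 across ablated ones and fell 2.09-fold, a log2 fold change of -1.06 ± 0.11 (SE) at an edgeR adjusted p of 6.82e-05. Sparcl1 (hevin), the closest relative of Sparc, had 12818, 10699 and 17617 counts across control libraries against 14616, 17194 and 22593 across ablated ones, with overlapping groups and a log2 fold change of 0.24 ± 0.16 (SE) at an edgeR adjusted p of 0.480. Within each library the TPM of Sparcl1 was 6.38, 5.93 and 8.43% in the control libraries and 15.8, 18.7 and 21.5% in the ablated ones of that of Sparc, again a pair chosen after their values were seen. Smoc1 had 0, 27 and 0 counts across control libraries against 80, 217 and 90 across ablated ones, so that its control counts came from control replicate 2 alone. Its log2 fold change was 3.53 ± 1.42 (SE) at an edgeR adjusted p of 0.177, and without control replicate 2 it was 9.98 (edgeR adjusted p = 0.00496, range 0.00496 to 0.455 over the alternatives), a fitted value that depends on the prior count since the other controls were at 0. The family's summed TPM was 8596 ± 376 in control and 4791 ± 189 in ablated libraries (SD, n = 3 each), the largest drop in TPM among the 8 families.

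**Figure D3:**
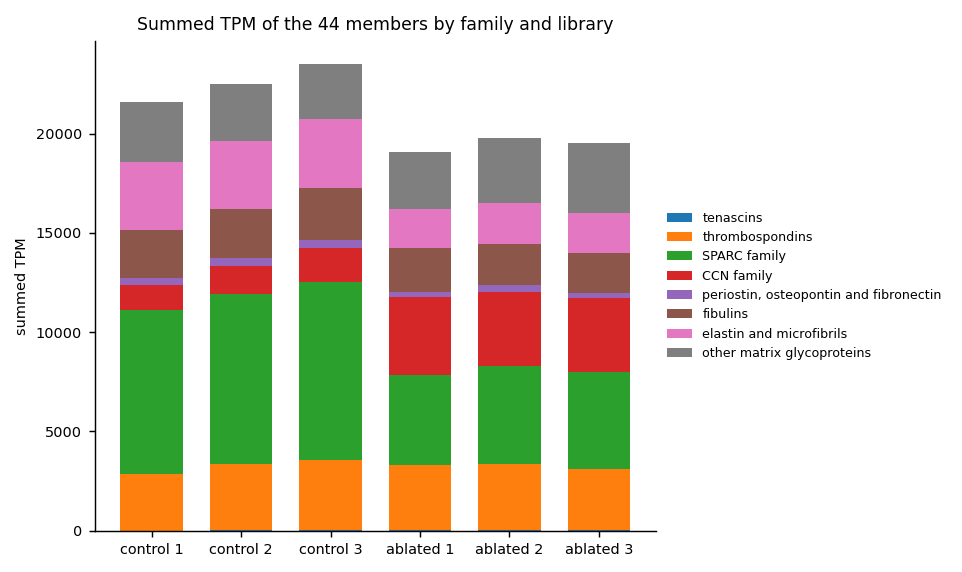
Summed TPM of the 44 members (y axis) in each library (x axis), stacked by family. The whole bar stands at 21589 to 23508 TPM in controls and 19096 to 19764 TPM in ablated libraries, with a smaller SPARC family and microfibril segment and a larger CCN segment in every ablated library.

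Fibronectin, osteopontin and periostin are adhesive ligands of integrins that are known from wound matrix. Fn1, the fibronectin gene, had 21100, 23322 and 30351 counts across control libraries against 10804, 12392 and 12860 across ablated ones and fell 2.34-fold, from 1175 ± 186 to 502 ± 35.8 CPM (SD, n = 3), a log2 fold change of -1.23 ± 0.14 (SE) at an edgeR adjusted p of 0.000115. Spp1, which encodes osteopontin, had 237, 297 and 260 counts across control libraries against 1098, 1003 and 973 across ablated ones, with no overlap. It rose 3.40-fold, from 12.6 ± 2.61 to 42.9 ± 3.82 CPM (SD, n = 3), a log2 fold change of 1.76 ± 0.24 (SE) at an edgeR adjusted p of 0.000637. Postn, which encodes periostin, had 2320, 2066 and 2712 counts across control libraries against 1379, 1717 and 2047 across ablated ones, and every ablated library lay below the controls in CPM. Its log2 fold change was -0.64 ± 0.17 (SE) at an edgeR adjusted p of 0.0399, close to the threshold. It passed without ablated replicate 3 (-0.76) and was lost without each of the other 5 libraries, with log2 fold changes of -0.67 without control replicate 1 to -0.52 without ablated replicate 1. With the replicate number as a block it was -0.65, also not past the threshold, and its adjusted p ran from 0.00525 to 0.179 over the alternatives.

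Fibulins link elastin, fibrillin and basement membranes. Fbln1 showed the largest rise of any member that passed the test. It had 451, 334 and 304 counts across control libraries against 6192, 6367 and 5345 across ablated ones, and the lowest ablated library was far above the highest control. It rose 14.5-fold, from 17.2 ± 3.71 to 249.9 ± 30.2 CPM (SD, n = 3), a log2 fold change of 3.86 ± 0.21 (SE) at an edgeR adjusted p of 3.76e-07. Without 1 library at a time this value stayed between 3.71 and 4.02. The other abundant fibulins were lower. Fbln5, which guides elastin onto microfibrils, had 45613, 39644 and 47532 counts across control libraries against 33686, 30151 and 34669 across ablated ones and fell 1.52-fold (log2 fold change -0.61 ± 0.10, adjusted p = 0.00221 by edgeR). Fbln2 had 13806, 13994 and 19553 counts across control libraries against 11355, 8556 and 10109 across ablated ones and fell 1.77-fold (log2 fold change -0.83 ± 0.15, adjusted p = 0.00429 by edgeR). Efemp1 (fibulin-3) had 2578, 1901 and 2713 counts across control libraries against 1268, 1036 and 1353 across ablated ones and fell 2.21-fold (log2 fold change -1.14 ± 0.17, adjusted p = 0.00117 by edgeR). Efemp2 (fibulin-4), which binds lysyl oxidase, had 4763, 3877 and 4870 counts across control libraries against 4181, 3314 and 3916 across ablated ones. Its groups did not overlap in CPM but did in TPM, and its log2 fold change of -0.42 ± 0.14 (SE) at an edgeR adjusted p of 0.107 did not pass. Fbln7 had 1, 74 and 0 counts across control libraries against 261, 241 and 350 across ablated ones, with nearly every control count in control replicate 2. Its log2 fold change was 3.19 ± 1.21 (SE) at an edgeR adjusted p of 0.148, and without control replicate 2 it was 8.73 (edgeR adjusted p = 0.000173, range 0.000173 to 0.382 over the alternatives), which depends on the prior count as for Smoc1.

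The balance within the fibulins shifted in every library. The TPM of Fbln1 was 0.941, 0.844 and 0.612% in the control libraries and 19.3, 22.4 and 16.2% in the ablated ones of that of Fbln5. Against Fbln2 it was 5.21, 3.98 and 2.48% in the control libraries and 95.9, 133 and 92.9% in the ablated ones, so that in ablated replicate 2 Fbln1 exceeded Fbln2. Both pairs were chosen after their values were seen. The mean transcript length implied by the deposited counts and FPKM differed as well for Fbln1. It was 2582, 2464 and 2576 bases across the control libraries against 2355, 2320 and 2355 across the ablated ones, a change of -7.77%. This length is a mean over isoforms weighted by RSEM's estimate of each. No other of the 33 members with at least 0.5 FPKM in every library changed by 5% or more without overlap, while 2.46% of 11151 tested genes did, so that 1 of 33 is near the background.

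**Figure D4:**
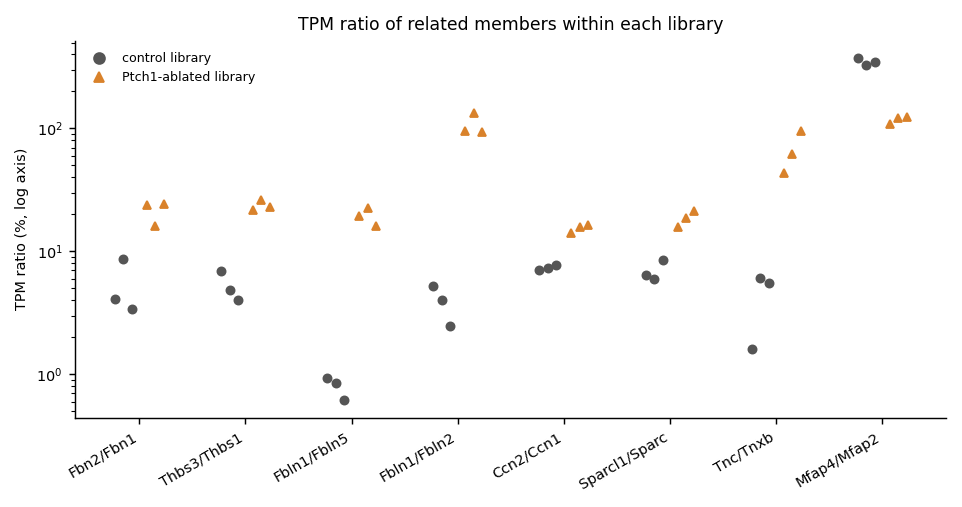
TPM ratio of related members in each library (y axis, percent on a log axis), with circles for the 3 control and triangles for the 3 Ptch1-ablated libraries. In each of the 8 pairs the groups do not overlap: Mfap4/Mfap2 is lower in the ablated libraries and the other ratios are higher, and all pairs were chosen after their values were seen.

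Elastin and the microfibril genes mostly did not pass the test. Of 8 tested, 1 rose, 1 fell and 6 did not pass. Mfap4, a microfibril-associated glycoprotein that binds collagen and elastin, had 35709, 30552 and 35789 counts across control libraries against 11039, 11531 and 13497 across ablated ones. It fell 3.20-fold, from 1604 ± 35.9 to 501 ± 37.7 CPM (SD, n = 3), a log2 fold change of -1.68 ± 0.11 (SE) at an edgeR adjusted p of 2.08e-06. Fbn2, the fibrillin of developing tissue, had 105, 158 and 90 counts across control libraries against 629, 631 and 687 across ablated ones and rose 4.77-fold, from 5.69 ± 2.31 to 27.1 ± 0.489 CPM (SD, n = 3), a log2 fold change of 2.25 ± 0.34 (SE) at an edgeR adjusted p of 0.00115. Fbn1, the main adult fibrillin and the Marfan syndrome gene, had 2387, 1720 and 2467 counts across control libraries against 2495, 3693 and 2671 across ablated ones, with groups that overlapped in CPM but not in TPM and a log2 fold change of 0.27 ± 0.19 (SE) at an edgeR adjusted p of 0.478. The TPM of Fbn2 was 4.13, 8.61 and 3.42% in the control libraries and 23.7, 16.1 and 24.2% in the ablated ones of that of Fbn1, a pair chosen after their values were seen, and Fbn2 thus remained the minor fibrillin in every library. Every count of both fibrillins was a whole number.

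Eln, the elastin gene, had 416, 391 and 428 counts across control libraries against 866, 596 and 719 across ablated ones, a low level for a matrix gene at 10.7 ± 0.437 and 19.4 ± 3.38 TPM in control and ablated keratocytes (SD, n = 3 each). Its log2 fold change of 0.64 ± 0.24 (SE) at an edgeR adjusted p of 0.145 did not pass, although the groups did not overlap. Mfap2, which binds fibrillin, was abundant at 709 ± 43.9 and 758 ± 6.72 TPM, a scale on which every ablated library lay above the controls. In CPM its groups overlapped (log2 fold change -0.11 ± 0.13, adjusted p = 0.689 by edgeR), and its sign turned in both limma fits on TPM and with library totals only. Mfap5 had 406, 289 and 425 counts across control libraries against 676, 268 and 599 across ablated ones, the lowest of them in ablated replicate 2 (log2 fold change 0.29 ± 0.34, adjusted p = 0.701 by edgeR). Emilin1, an elastin-interface protein, lay at 203 ± 23.9 and 250.5 ± 11.5 TPM, with groups that overlapped in CPM but not in TPM (log2 fold change 0.10 ± 0.13, adjusted p = 0.75 by edgeR). Emilin2 had 201, 328 and 402 counts across control libraries against 785, 512 and 457 across ablated ones and a log2 fold change of 0.74 ± 0.33 (SE) at an edgeR adjusted p of 0.235, with groups that did not overlap. Mfap4 alone lost more TPM than the sum of this family, which was 3447 ± 44.2 in control and 2009 ± 45.7 in ablated libraries (SD, n = 3 each). Mfap4 stood at 376, 326 and 345% in the control libraries and 109, 121 and 123% in the ablated ones of the TPM of Mfap2, a pair also chosen after their values were seen.

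The largest falls were among the other matrix glycoproteins. Mamdc2, a secreted MAM-domain proteoglycan, had 16245, 14302 and 18389 counts across control libraries against 1219, 801 and 1198 across ablated ones. It fell 17.2-fold, from 768 ± 32.6 to 44.7 ± 9.46 CPM (SD, n = 3), a log2 fold change of -4.10 ± 0.18 (SE) at an edgeR adjusted p of 9.88e-08. Dpt encodes dermatopontin, which binds decorin and promotes collagen fibril formation, and it had 15695, 11728 and 15457 counts across control libraries against 1243, 854 and 1623 across ablated ones, a 13.0-fold fall (log2 fold change -3.70 ± 0.21, adjusted p = 5.29e-07 by edgeR). Nell1, a secreted protein of bone formation, had 149, 120 and 293 counts across control libraries against 0, 1 and 0 across ablated ones, so that the ablated libraries were at or under the limit that a count of 0 allows. It was at least 67.7-fold lower, with 3 counts per library as the floor (edgeR adjusted p = 0.000140). Its relative Nell2 was too low to be tested, with 0 counts in every control and 0, 49 and 0 in the ablated libraries, all of them in ablated replicate 2. That library is the ablated one set apart by the second principal component, and it also held the counts of Tnn and the highest ones of Smoc1 and Ccn5.

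Other genes of this group rose. Fndc1, a fibronectin type III domain protein, had 346, 302 and 371 counts across control libraries against 2214, 1815 and 1696 across ablated ones and rose 4.99-fold, from 16 ± 0.209 to 79.9 ± 13.3 CPM (SD, n = 3), a log2 fold change of 2.32 ± 0.21 (SE) at an edgeR adjusted p of 1.90e-05. Ecm1, which binds perlecan and fibulins and is mutated in lipoid proteinosis, had 1847, 1517 and 1870 counts across control libraries against 8256, 7250 and 7609 across ablated ones and rose 3.92-fold (log2 fold change 1.97 ± 0.14, adjusted p = 3.69e-06 by edgeR). Matn2 (matrilin-2), an adaptor of filamentous networks, had 924, 530 and 757 counts across control libraries against 1931, 1715 and 1975 across ablated ones and rose 2.27-fold (log2 fold change 1.18 ± 0.20, adjusted p = 0.00287 by edgeR). Mgp (matrix Gla protein), an inhibitor of calcification and of BMP signaling, had 6148, 5351 and 4866 counts across control libraries against 8682, 9580 and 12452 across ablated ones. It rose 1.65-fold (log2 fold change 0.72 ± 0.16, adjusted p = 0.0147 by edgeR), and this call was lost without control replicate 3 (0.60, edgeR adjusted p = 0.0558) or ablated replicate 3 (0.58, edgeR adjusted p = 0.0737, range 0.000141 to 0.0737 over the alternatives). Each of these 4 genes was above the controls in every ablated library. Vcan, the large proteoglycan versican, had 104, 68 and 110 counts across control libraries against 239, 201 and 214 across ablated ones and did not pass (log2 fold change 1.05 ± 0.41, adjusted p = 0.160 by edgeR). Ecm2 had 410, 359 and 199 counts across control libraries against 360, 510 and 766 across ablated ones, with overlapping groups (log2 fold change 0.55 ± 0.36, adjusted p = 0.448 by edgeR), and it was the only member whose counts were not all whole and that overlaps another gene of the table, Cenpp.

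**Figure D5:**
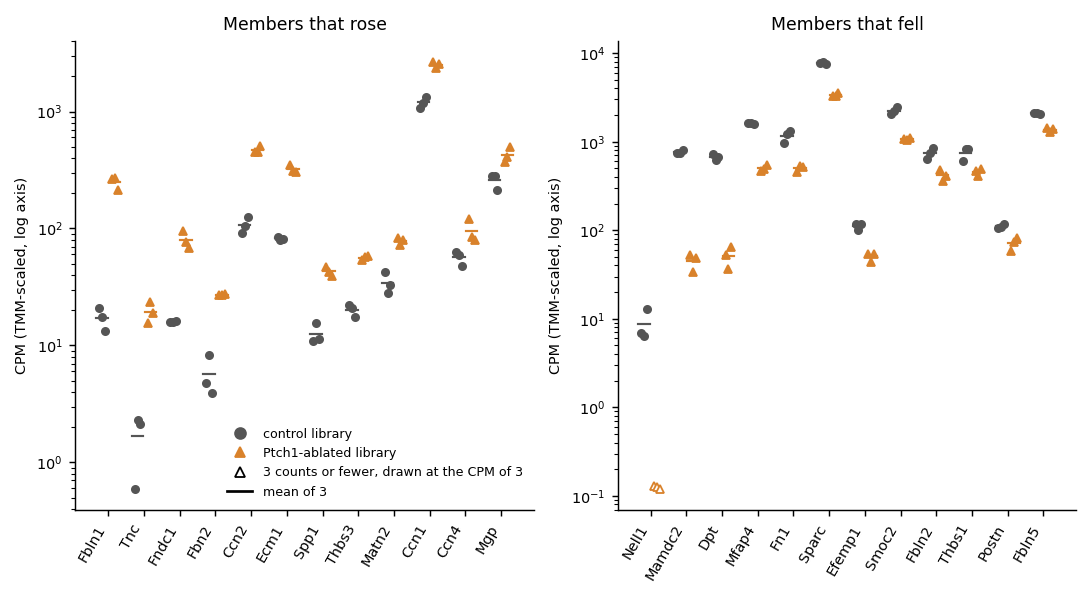
CPM of the 12 members that rose (left) and the 12 that fell (right) in every library, on log axes, ordered by the size of the log2 fold change, with circles for control and triangles for Ptch1-ablated libraries and a line at each mean of 3. The groups do not overlap for any of the 24 genes, which the test had selected, and the ablated libraries of Nell1 are drawn open at the CPM of 3 counts.

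Genes that work with the members were read from 3 further lists, chosen like the members with earlier results of these data known. Of 18 tested genes of elastic fiber assembly 3 rose and 2 fell, where 4.68% of all tested genes rose and 3.80% fell. Ltbp2, a latent TGF-beta binding protein that attaches to fibrillin, had 118, 75 and 189 counts across control libraries against 3980, 3642 and 3175 across ablated ones and rose 25.5-fold (log2 fold change 4.67 ± 0.28, adjusted p = 8.11e-07 by edgeR). Adamtsl4, which promotes microfibril formation and is mutated in lens dislocation, rose with a log2 fold change of 1.14 ± 0.26 (SE) at an edgeR adjusted p of 0.0164, and Mmrn2, an endothelial multimerin of the emilin family, with 1.19 ± 0.18 (SE) at an edgeR adjusted p of 0.00133. Thsd4 (ADAMTSL6), a fibrillin-binding protein, fell (log2 fold change -1.28 ± 0.28, adjusted p = 0.0133 by edgeR). The crosslinking enzyme Lox fell by less than 2-fold (log2 fold change -0.80 ± 0.15, adjusted p = 0.00577 by edgeR), and its relative Loxl1, which crosslinks elastin, did not pass, with a log2 fold change of 0.07 ± 0.17 (SE) at an edgeR adjusted p of 0.891. In all, 13 tested genes of the list did not pass.

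Of 17 tested receptors of matricellular proteins 2 rose and 4 fell. For this list and the next, the shares over all tested genes were again 4.68% that rose and 3.80% that fell. Itga8, a receptor subunit for fibronectin, tenascin and osteopontin, had 76, 37 and 36 counts across control libraries against 234, 431 and 306 across ablated ones and rose 5.78-fold (log2 fold change 2.53 ± 0.47, adjusted p = 0.00487 by edgeR). Itgb8, which takes part in TGF-beta activation, rose (log2 fold change 1.17 ± 0.26, adjusted p = 0.0139 by edgeR). Itga4, which binds fibronectin and osteopontin, had 1633, 944 and 1256 counts across control libraries against 329, 602 and 545 across ablated ones and fell 2.92-fold (log2 fold change -1.54 ± 0.27, adjusted p = 0.00307 by edgeR). Cd44, Sdc1 and Itgb5 fell by less than 2-fold, with log2 fold changes of -0.71 ± 0.14, -0.97 ± 0.15 and -0.79 ± 0.21 (SE). Among 12 tested further matricellular proteins 2 rose and 3 fell. Igfbp7 rose (log2 fold change 2.05 ± 0.31, adjusted p = 0.00124 by edgeR), as did the hemicentin gene Hmcn1 (log2 fold change 1.27 ± 0.21, adjusted p = 0.00217 by edgeR). Abi3bp, a fibronectin type III domain protein of the matrix, had 3822, 2118 and 3579 counts across control libraries against 757, 636 and 1064 across ablated ones and fell 4.34-fold (log2 fold change -2.12 ± 0.23, adjusted p = 8.40e-05 by edgeR). Tgfbi, the gene of granular and lattice corneal dystrophies, and Fstl1 fell by less than 2-fold, with log2 fold changes of -0.82 ± 0.12 and -0.58 ± 0.12 (SE).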

How the data were processed

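RNA of sorted keratocytes was measured in 3 control and 3 Ptch1-ablated samples, with groups and replicate numbers read from the titles. Per the labels the submitters' processing notes name mm9, Bowtie2 2.2.5 and RSEM 1.2.12, and the annotation release and strand setting were not given in the sources used here. For each gene the table deposited by the authors gives expected counts from RSEM, not normalized, beside TPM and FPKM values that the authors scaled by length and library. Expected counts were rounded, since 18.6% were fractional. The authors' averages per group were not used.

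After filterByExpr and TMM scaling, edgeR's quasi-likelihood test was run on all 6 libraries (two-sided, no covariates, Benjamini-Hochberg adjustment over all 13888 genes). Each SE is the absolute log2 fold change over the root of F. CPM is counts per 1000000 of the scaled total. Beyond edgeR, limma was applied to log2 values of the deposited TPM, with a pseudocount of 1 or 0.1. The edgeR test alone was also run on simulated counts with known changes, and the limma and DESeq2 fits were not. The simulated spread between libraries followed its trend with abundance alone. That run therefore cannot show how genes with most counts in a lone library behave. The members and lists were chosen with earlier results of these data known, and by rule all 44 members are named. The deposited FPKM served to derive effective lengths. Count floors cover counting error only, and each SD is taken over the 3 libraries of a group. Protein sequence was not used here. Alternatives were RLE, upper quartile and no scaling, DESeq2, other filters and thresholds, a replicate block, limma and leaving out libraries. Software comprised edgeR 4.0.16, DESeq2 1.42.0 and limma 3.58.1 under R 4.3.3, and Python 3.11.15.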

Additional observations from a re-analysis of the deposited data

How the results depend on the processing

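Of the 24 members that passed an adjusted p of 0.05, 20 passed under all 16 alternative fits, and Thbs1, Ccn4, Postn and Mgp lost the call under some. Of the 18 that did not pass, 6 passed under some alternative, among them Thbs4 (-0.36 with upper quartile scaling) and Efemp2 (-0.41 with DESeq2). Mfap2 turned from -0.11 to 0.10 in both limma fits and to 0.054 when only library totals set the scale, a setting added once the data had been seen. No other member changed sign. The 10 members called higher at 2-fold became 10 to 12 with 1 library left out and the 8 called lower 7 to 8, while those past the adjusted p alone numbered 10 to 13 higher and 10 to 12 lower. The 8 called lower became 4 in limma with a pseudocount of 1 and 5 with a pseudocount of 0.1, where the median of all genes lay at 0.19 and 0.22, and 6 with library totals only, where it lay at 0.17. The members' median of 0.42 became 0.60 with DESeq2 and without a low-count filter, both of which add Tnn and Nell2, 0.62 in limma on log2(TPM + 0.1), 0.58 with library totals only and 0.61 with both libraries of the second principal component left out, likewise added later. With 1 library left out it ran from 0.30 to 0.60. The mean summed TPM ran from 22055 to 23014 in controls and from 19319 to 19653 in ablated libraries with 1 left out.

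Same-numbered samples did not deviate together from their group means (correlations of -0.046, -0.049 and 0.039), so the numbers were not taken as pairs. With the replicate number as a block, 10 members were called higher and 8 lower, 12 and 11 past the adjusted p alone, with a median of 0.40, and Postn was the one call lost. Tnn and Nell2 had too few counts to be tested. For these and for Smoc1, Ccn3, Ccn5, Fbln7 and Comp most counts of a group came from a lone library, at totals of 20258414 to 24788039, and the cause was not tested.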
